A study of Homo sapiens with 8 samples.

Results

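The genes described here are the interleukin-7 (IL-7) receptor chain IL7R with its ligands IL7 and TSLP, and the core of the interleukin-1 (IL-1) family, namely the ligands IL1A, IL1B and IL33 and the receptor chains IL1R1, IL1RAP and IL1RL1. They were chosen by symbol, with the difference between treated and control cells already known, and 8 of the 9 genes had a row among the 16796 genes counted. IL33 had no row and was not analysed here. Messenger RNA was sequenced in LX-2, an immortalized human cell line with the features of activated hepatic stellate cells (HSCs), the main source of liver myofibroblasts, so all 8 libraries come from 1 cell line. The control group received the vehicle DMSO, and the OGTi group received OSMI-1 at 50 µM, a small molecule that inhibits O-GlcNAc transferase (OGT), the enzyme that puts the sugar O-GlcNAc on intracellular proteins. Both groups were kept for 24 h, in medium with 5% serum, and each had 4 biological replicates.

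IL7R is a type I cytokine receptor chain. With the common gamma chain (gene IL2RG) it forms the receptor for IL-7, a survival and growth factor of lymphocytes, and with CRLF2 it forms the receptor for TSLP, an epithelial cytokine; both receptors signal through JAK kinases and STAT5. In the IL-1 family, IL-1α and IL-1β (genes IL1A and IL1B) bind IL1R1, IL-33 binds IL1RL1 (also called ST2), and IL1RAP is the accessory chain that both receptors need before they can recruit MYD88 and the IRAK kinases and activate NF-κB. HSCs answer to IL-1 with chemokines and matrix-degrading enzymes, and IL-33 acts as an alarm signal released from damaged tissue.

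The promoters of IL7R and IL1RAP are shown because these were the 2 genes of the set whose control and OGTi libraries did not overlap. The sequences are those RefSeq gives upstream of the transcription start on GRCh38.p14, cut to the longest stretch free of exons, and both lie on the plus strand. The IL7R stretch spans chr5:35856688-35856888 and has a GC content of 42.8%, and the IL1RAP stretch spans chr3:190513835-190514050 and has a GC content of 79.2%. The IL7R start used here lies inside the annotated gene, which begins at base 35852695, and 49 bases of its 250-base window are exonic. No IL7R start further upstream was searched. Capitals mark the letters TATAAA of the TATA box, read on either strand.
IL7R: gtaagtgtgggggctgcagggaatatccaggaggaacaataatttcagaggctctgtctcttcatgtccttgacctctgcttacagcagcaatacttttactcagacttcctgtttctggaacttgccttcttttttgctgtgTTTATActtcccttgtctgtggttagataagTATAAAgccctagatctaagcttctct
IL1RAP: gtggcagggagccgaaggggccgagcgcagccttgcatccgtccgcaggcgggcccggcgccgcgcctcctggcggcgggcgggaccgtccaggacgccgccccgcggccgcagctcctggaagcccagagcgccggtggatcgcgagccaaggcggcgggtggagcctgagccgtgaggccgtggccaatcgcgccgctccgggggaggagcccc

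In the 250 bases before the start, IL7R held TATAAA on the plus strand at bases 29 to 24 before the start and on the minus strand at bases 60 to 55, a motif present in 10.7% of 35116 RefSeq promoter windows of the same length. Neither window held the AP-1 letters TGANTCA (6.57% of all windows), the TEAD letters GGAATG (11.9%) or the kappaB motif (9.96%), each searched on both strands, and the IL1RAP window held no TATAAA. Of the other members, IL1A held TGANTCA upstream of each of its 2 listed starts, with 2 matches upstream of 1 of them. The 2 windows overlap, and 1 of these 2 matches is the same site as that of the other start. IL1RL1 held TGANTCA upstream of 1 of its 2 starts, and IL1R1 held GGAATG upstream of 1 of its 4 starts. TSLP had a kappaB match and a TATAAA match upstream of 1 of its 3 starts, and TATAAA was also found upstream of 1 start each of IL1A, IL1R1 and IL1RL1. IL1B and IL33 had no match to the 4 motifs, and IL7 was not searched. These are matches of letters and were not tested as sites.

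IL7R was the abundant gene of the set in control cells and was about 8 times lower in OGTi cells. The gene lies at chr5:35852695-35879603 on hg38. Its normalized count, the count divided by the size factor of the library, was 21965, 20506, 27056 and 22074 in control replicates 1 to 4, and 2401, 2575, 3076 and 2866 in OGTi replicates 1 to 4. Every OGTi library stood far below every control library, and replicate 3 was the highest of each group. The means were 22900 ± 2861 in control and 2730 ± 300.4 in OGTi (SD, n = 4 each), which is a log2 fold change (log2 FC) of -3.07 ± 0.07 (SE; 95% confidence interval -3.20 to -2.93). The fold within a replicate pair ranged from 7.70 to 9.15, so the OGTi level was 11.9% of the control level on average. IL7R took 0.0842% of all counts in control libraries and 0.0107% in OGTi libraries. Leaving out each pair in turn kept the log2 FC between -3.11 and -3.02. In bulk RNA, fewer cells with a transcript and less of it per cell cannot be told apart.

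Across the whole comparison many genes differed, and the member counts have to be read beside that background. The rule for a call was an adjusted p-value (q, after Benjamini and Hochberg) of 0.05 or lower in the DESeq2 Wald test, and 46.6% of the 14028 genes with a q were called. Of the 6 members that passed the count minimum, 2 met that rule, IL7R lower (24.0% of all genes with a q) and IL1RAP higher (22.7%). The control and OGTi libraries did not overlap for these 2 members, and for 38.0% of all 14895 genes tested. Since the members were chosen with this comparison in view, these counts are given as a description. A log2 FC of -3 or lower was reached by 11 of the 10994 genes whose normalized counts averaged at least 100 (0.1%), and IL7R was the 11th of them.

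**Figure D1:**
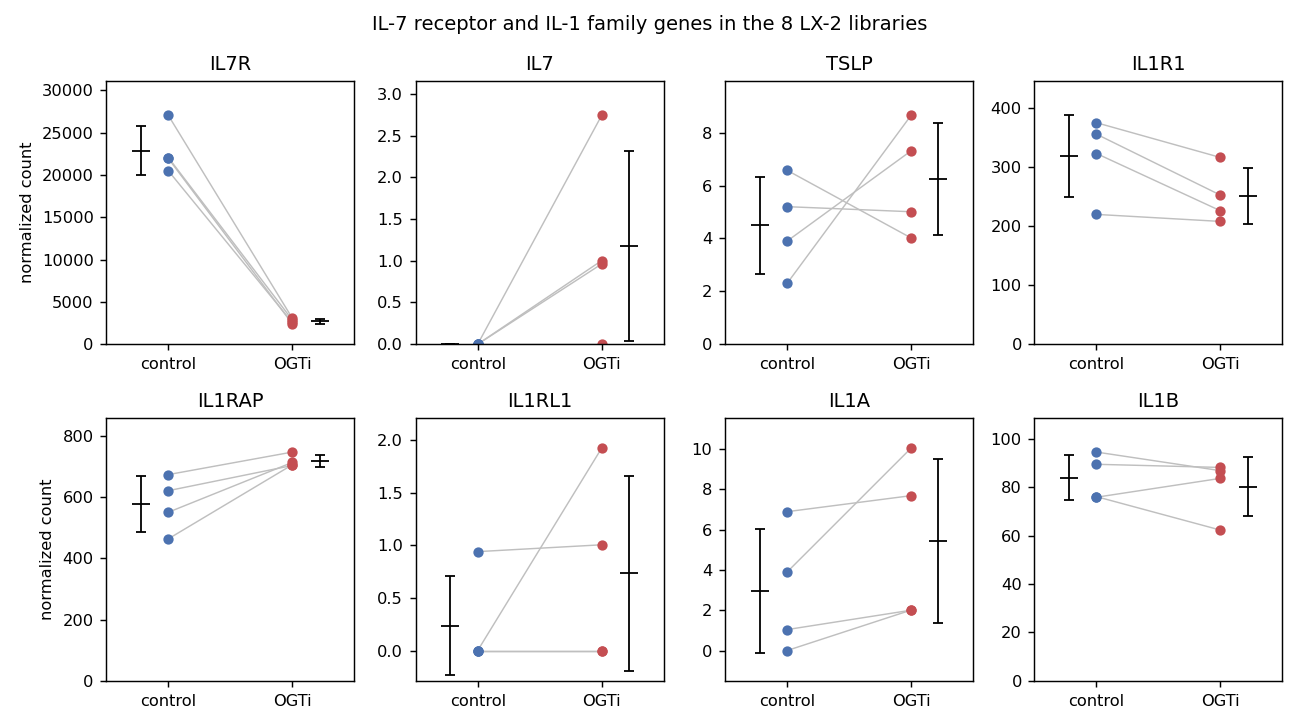
Normalized count of the 8 listed members in each library; points are single libraries, grey lines join the control and OGTi library of the same replicate number, and black bars give the mean ± SD of 4 libraries, with an own vertical scale for each gene. IL7R lies between 20506 and 27056 in control and between 2401 and 3076 in OGTi libraries, IL1RAP lies higher in OGTi without overlap, and IL7, TSLP, IL1RL1 and IL1A stay at about 10 counts or fewer in every library.

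The ligands of the IL7R receptors were at the limit of detection. IL7, the cytokine itself, had 0 counts in all 4 control libraries and 3, 0, 1 and 1 counts in OGTi replicates 1 to 4. By counting error a count of 0 allows up to 3 counts in a single library, and no OGTi library was above that. This limit does not cover the 4 libraries of a group together, with totals of 0 in control and 5 in OGTi. Whether these totals differ was not tested, and no fold is given. TSLP had 4, 7, 2 and 5 counts in control replicates 1 to 4 and 8, 4, 9 and 5 counts in OGTi replicates 1 to 4. After scaling, the TSLP means were 4.49 ± 1.83 in control and 6.25 ± 2.12 in OGTi, the ranges overlapped and the value was higher in OGTi in 2 of 4 pairs. The log2 FC of TSLP, 0.48 ± 0.96, was smaller than its own error.

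Among the receptor chains of the IL-1 family, IL1RAP was slightly higher and IL1R1 slightly lower in OGTi cells. IL1RAP (chr3:190514051-190659750) had normalized counts of 464, 550, 673 and 621 in control replicates 1 to 4 and 705, 713, 747 and 703 in OGTi replicates 1 to 4. All 4 OGTi libraries lay above all 4 control libraries, and they spread less, with a coefficient of variation of 2.83% against 15.7%. The means were 577 ± 90.8 and 717 ± 20.3, a log2 FC of 0.33 ± 0.12 (95% confidence interval 0.10 to 0.55). The pairs gave log2 differences of 0.61, 0.37, 0.15 and 0.18 for replicates 1 to 4, so the difference was larger in replicates 1 and 2, whose control libraries were the lower ones, and IL1RAP no longer met the rule for a call without replicate 1 (log2 FC 0.24) or without replicate 2 (0.31). RSEM gave IL1RAP a fractional count in 7 of 8 libraries, which means that some of its reads also aligned elsewhere.

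IL1R1, the signalling receptor of IL-1α and IL-1β (chr2:102064544-102179874), had normalized counts of 375, 219.8, 323 and 356 in control replicates 1 to 4. In OGTi replicates 1 to 4 it had 316, 208, 226 and 252. Replicate 2 was the lowest of each group, and the lowest control library lay below 3 of the 4 OGTi libraries. IL1R1 was lower in OGTi in 4 of 4 pairs, but the groups overlapped. The means were 318 ± 69.1 and 251 ± 47.4, a log2 FC of -0.34 ± 0.15 (95% confidence interval -0.63 to -0.04).

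The ratio of the IL1RAP count to the IL1R1 count puts the opposite directions of these chains into 1 value per library. It was 1.24, 2.50, 2.09 and 1.75 in control replicates 1 to 4 and 2.23, 3.43, 3.31 and 2.79 in OGTi replicates 1 to 4. The ratio was thus higher in OGTi in each of the 4 pairs, although the lowest OGTi value lay below the highest control value. Its direction in each pair follows from those of both chains and is no separate result. IL1RL1, the IL-33 receptor, had 0, 1, 0 and 0 counts in control and 0, 1, 2 and 0 counts in OGTi replicates 1 to 4, and no fold is given for these counts. IL1RL1 lies 131627 bases from IL1R1 on chromosome 2 and overlaps IL18R1 on the same strand, and IL18R1 had 0 counts in control and 5 in OGTi over the 4 libraries. Both genes had whole counts in all 8 libraries, with 0 fractional values.

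For the IL-1 ligands the control and OGTi libraries overlapped. IL1B had normalized counts of 94.5, 76.1, 75.8 and 89.4 in control replicates 1 to 4 and 86.8, 62.3, 83.6 and 88.2 in OGTi replicates 1 to 4. The ranges lay over each other and the value was lower in OGTi in 3 of 4 pairs. The means of IL1B were 84.0 ± 9.47 and 80.2 ± 12.1, and the log2 FC of -0.07 ± 0.25 had a 95% confidence interval of -0.57 to 0.42, which leaves room for a moderate difference in either direction. IL1A, whose gene lies 45257 bases from IL1B, had 4, 0, 6 and 1 counts in control replicates 1 to 4 and 11, 2, 8 and 2 counts in OGTi replicates 1 to 4. IL1A was higher in OGTi in 4 of 4 pairs, with overlapping groups, means of 2.96 ± 3.10 and 5.44 ± 4.08 normalized counts, and a log2 FC of 1.24 ± 1.20 that rests on 34 counts in all. Leaving out 1 pair at a time moved it between 0.80 and 1.81.

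**Figure D2:**
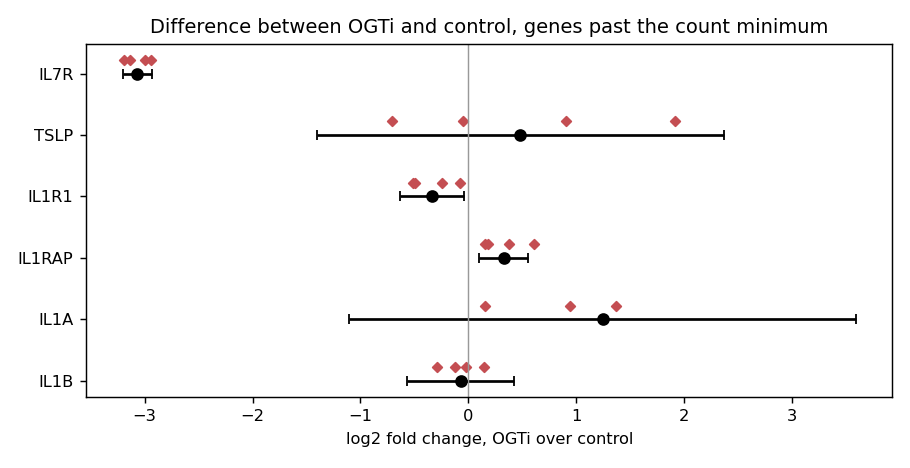
Log2 fold change of OGTi over control for the 6 members that passed the count minimum; black points and bars give the model estimate with its 95% confidence interval, and red diamonds the 4 replicate pairs (3 for IL1A, which had no count in control replicate 2). IL7R stands at -3.07 with a narrow interval, IL1R1 and IL1RAP lie on opposite sides of 0 at -0.34 and 0.33, and the intervals of TSLP and IL1A are wide.

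To compare levels between genes, normalized counts were divided by the length of the reference transcript in kilobases. In control cells IL7R stood at 4996 ± 624 normalized counts per kilobase, 41.1 times the level of the next member, IL1RAP, at 122 ± 19.1. IL1R1 followed at 61.4 ± 13.3 and IL1B at 55.7 ± 6.28, and these neighbours in the order overlapped. IL1RAP did not overlap with IL1R1, nor IL1B with TSLP, which was 32.4 times lower at 1.72 ± 0.70. IL1A (1.47 ± 1.54) overlapped with TSLP, with IL1RL1 (0.12 ± 0.24) and with IL7 (0), and IL1RL1 overlapped with IL7, whereas TSLP lay above IL1RL1 and IL7 in every control library, at 18 counts in all against 1 and 0. In OGTi cells IL7R was still the highest member, at 595 ± 65.5 per kilobase against 151 ± 4.28 for IL1RAP, 53.2 ± 8.04 for IL1B and 48.4 ± 9.14 for IL1R1. Dividing by the length of all annotated exons, in place of the reference transcript, lowered IL7R in control cells to 3804 and IL1RAP to 51.5. That brought IL1RAP closer to IL1R1, at 44.7. The ratios and overlaps given above hold for the reference transcript.

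**Figure D3:**
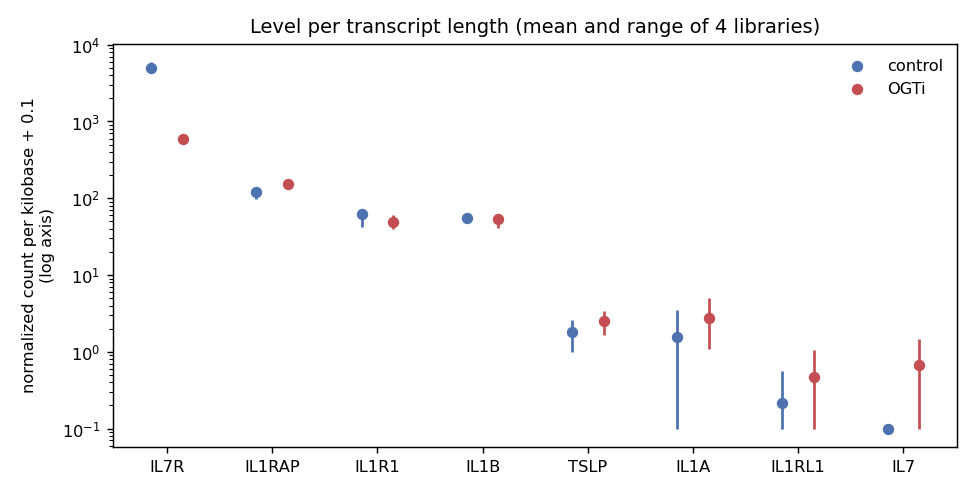
Level of each listed member per kilobase of transcript in control (blue) and OGTi (red) libraries on a log axis, with 0.1 added so that zero can be drawn; points are means and bars the range of 4 libraries. IL7R lies far above the other members in control cells (4996 per kilobase), IL1RAP, IL1R1 and IL1B form a middle group between 48.4 and 151, and the 4 remaining genes lie under 3 on average.

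The partners of IL7R were present at very unequal levels on the same per-kilobase scale. IL2RG, the common gamma chain, stood at 8.66 ± 2.71 in control and 13.2 ± 7.48 in OGTi libraries, so that IL7R exceeded it 577 times in control and 45.2 times in OGTi cells. CRLF2, the chain that pairs with IL7R for TSLP, had 7 counts over the 4 control libraries and 12 over the 4 OGTi libraries. JAK1, the kinase bound by IL7R, stood at 1187 ± 63.7 in control and 1440 ± 33.9 in OGTi, whereas JAK3, the kinase bound by the common gamma chain, stood at 0.74 ± 0.40 and 0.63 ± 0.15. IL7R was thus 4.21 times the level of JAK1 in control cells and 0.414 times its level in OGTi cells. These ratios hold for the reference transcript, and partner levels were not computed with another length. All annotated exons span 13174 bases for JAK1, against 5092 in its reference transcript, and 6020 against 4584 for IL7R. For the IL-1 receptor, the adaptor MYD88 stood at 440 ± 36.6 and 516 ± 21.9, IRAK1 at 4972 ± 490 and 4397 ± 126, and the decoy receptor IL1R2 had 3 counts in control and 4 in OGTi libraries. IL2RG, CRLF2, JAK3, MYD88, IRAK1 and IL1R2 were named here after their values were seen.

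The genes whose profile over the 8 libraries was nearest to that of IL7R were ADAMTS5, LOC107987377 and EDN1. Nearness was the root mean square difference between log2(normalized count + 1) profiles after subtraction of the gene mean, among 10993 other genes whose normalized counts averaged at least 100, and its median over these genes was 1.55 for IL7R. ADAMTS5, a protease that cleaves aggrecan, was at a distance of 0.185, with 1945 ± 311 normalized counts in control and 206 ± 11.9 in OGTi. LOC107987377 was at 0.236, with 613 ± 57.0 normalized counts in control and 87.8 (58.5 to 103 over the 4 libraries) in OGTi. EDN1, the precursor of the vasoconstrictor endothelin-1, was at 0.279, with 861 ± 146 and 82.2 ± 20.7 normalized counts. All 3 were, like IL7R, lower in OGTi in every pair, at log2 FC values of -3.23 ± 0.12, -2.82 ± 0.16 and -3.40 ± 0.17, a likeness for which they were picked.

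**Figure D4:**
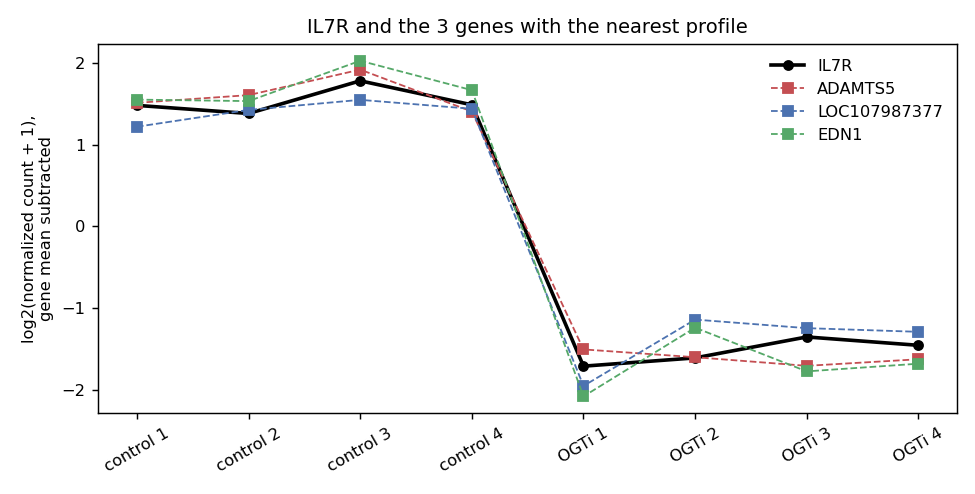
Profiles of IL7R and its 3 nearest genes, as log2(normalized count + 1) minus the mean of the gene, over the 8 libraries named by group and replicate number. The 4 lines run within a narrow band around 1.2 to 2.0 in control libraries and -2.1 to -1.1 in OGTi libraries; the genes were picked for this likeness.

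For IL1RAP the nearest profiles were those of DOCK9 (0.0449), BRAP (0.0577) and FMNL3 (0.0649), against a median of 0.289 over all genes searched. DOCK9 activates the GTPase CDC42, and FMNL3 is a formin that elongates actin filaments. For IL1R1 they were NUDT2 (0.130), GALNT16 (0.134) and MEAK7 (0.149), against a median of 0.371, and GALNT16 belongs to the enzymes that start mucin-type O-glycans. The 3 neighbours of IL1RAP were higher in OGTi in 4 of 4 pairs, with log2 FC values from 0.28 to 0.37, and the 3 neighbours of IL1R1 were lower in 4 of 4 pairs, with log2 FC values from -0.32 to -0.24. Neighbours were picked for likeness over the same 8 libraries, so a shared direction comes largely from the choice.

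The wider pathways were followed with 6 lists of genes that are not members, 91 genes in all, of which 70 were tested and 67 had a q. Of these, 19 were higher and 14 lower in OGTi, together 49.3% of those with a q, against 46.6% of all genes. The median log2 FC over the 70 genes was 0.17, against 0.00 over all genes tested.

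In the list of receptor partners and JAK-STAT genes, the transcription factor STAT5B fell and SH2B3, TYK2 and JAK1 rose. There, 4 of the 15 genes with a q were higher and 2 lower (40.0%, against 46.6% of all genes), with a median log2 FC of 0.27 over the 16 tested. STAT5B, which is phosphorylated after IL-7 binding, fell from 2134 ± 115 to 1146 ± 38.0 normalized counts (log2 FC -0.90 ± 0.08, q = 2.02e-25), and its groups did not overlap. STAT5A, named after its values were seen, was not called (-0.37 ± 0.22, q = 0.150) and its groups overlapped. Both STAT5 genes had fractional counts in 8 of 8 libraries. SH2B3, an adaptor that restrains JAK signalling, rose from 4688 ± 853 to 7629 ± 494 (log2 FC 0.72 ± 0.10, q = 1.60e-11). JAK1, the kinase bound by IL7R, rose by a log2 FC of 0.28 ± 0.07 (q = 0.000279), and TYK2, a kinase of the same family that serves other cytokine receptors, by 0.34 ± 0.07 (q = 9.60e-06). JAK2, which acts at the TSLP receptor, and JAK3, which acts at the IL-7 receptor, had log2 FC values of 0.29 ± 0.14 (q = 0.0886) and -0.12 ± 1.13 (q = 0.946) and were named after their values were seen. The remaining calls were a rise of SOCS1 (0.60 ± 0.22, q = 0.0141) and a fall of SOCS2 (-0.74 ± 0.32, q = 0.0430), 2 feedback inhibitors named after their values were seen. The call of SOCS1 was lost without replicate 2 or 4 (q = 0.143 and 0.0830), and that of SOCS2 without replicate 3 or 4 (q = 0.195 and 0.415) and without the replicate block (q = 0.118), which left STAT5B as the 1 gene called lower.

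Few other ligands and receptors of the IL-1 family were measurable. Of 9 other ligands and antagonists, 4 had no row, 2 were under the count minimum, and 1 of the 3 tested was called, with a median log2 FC of 0.03. IL18, a ligand matured by the same caspase as IL-1β, fell from 26.2 ± 9.39 to 11.9 ± 12.9 normalized counts (log2 FC -1.48 ± 0.60, q = 0.0306); it was named after its values were seen, and its call was lost without replicate 1, 3 or 4 (q = 0.241, 0.0514 and 0.178) and without the replicate block (q = 0.120). IL18BP, the soluble antagonist of IL-18, had 253 ± 55.5 and 256 ± 36.7 normalized counts (log2 FC 0.03 ± 0.15, q = 0.886). Of 7 other receptors, 3 had no row, 2 were under the minimum, and of the 2 tested 0 were called by DESeq2, with a median log2 FC of -0.27. That median lies between the 2 genes, SIGIRR and IL1RAPL1. IL1RAPL1, named after its values were seen, had 20 counts in all, no q and a log2 FC of -0.87 ± 1.49. At an unadjusted p under 0.05 there was 1 gene. That gene, SIGIRR, an inhibitory receptor, had 237 ± 24.2 and 299 ± 51.6 normalized counts (log2 FC 0.33 ± 0.15, q = 0.0614), and edgeR with the replicate block put it at q = 0.0244.

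Of the 12 genes with a q for maturation and release of IL-1, 4 were higher and 2 lower (50.0%, against 46.6% of all genes), with a median log2 FC of 0.12. CASP4, the caspase that senses intracellular lipopolysaccharide, rose from 1125 ± 29.7 to 1821 ± 104 normalized counts (log2 FC 0.69 ± 0.09, q = 1.11e-14). S100A13, which takes part in the export of IL-1α, rose from 275 ± 68.4 to 474 ± 81.4 (0.80 ± 0.14, q = 3.08e-08). The calpains CAPN2 (-0.39 ± 0.09, q = 4.14e-05) and CAPN1 (-0.33 ± 0.08, q = 8.24e-05), proteases of the kind that cleave the IL-1α precursor, fell in 4 of 4 pairs with overlapping groups. The other rises were those of the inflammasome sensors NLRP1 (0.27 ± 0.09, q = 0.00977) and NLRP3 (0.65 ± 0.22, q = 0.00829), named after their values were seen. The call of NLRP1 was lost without replicate 1, 3 or 4 (q = 0.0673, 0.0605 and 0.0861), and that of NLRP3 without replicate 1 or 2 (q = 0.167 and 0.0531). CASP1, the protease that matures IL-1β, had 148 ± 45.1 and 160 ± 38.9 normalized counts (q = 0.643), and its adaptor PYCARD had 22 counts over the control and 7 over the OGTi libraries; these too were chosen after their values were seen.

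In the signalling chain below IL1R1 and IL1RAP, 6 genes were higher and 5 lower of 18 (61.1%, against 46.6% of all genes), with a median log2 FC of 0.13. MAP3K3, a kinase on the way to NF-κB, rose from 4279 ± 140 to 6954 ± 344 normalized counts (log2 FC 0.70 ± 0.07, q = 2.21e-21). The E2 enzyme pair that builds the ubiquitin chains of this pathway fell, UBE2V1 by a log2 FC of -0.45 ± 0.07 (q = 7.78e-10) and UBE2N by -0.33 ± 0.07 (q = 2.76e-05), although UBE2V1 overlaps a read-through transcript on the same strand and its counts may be shared. ECSIT, an adaptor that binds TRAF6, fell from 1011 ± 76.3 to 727 ± 89.6 (-0.48 ± 0.10, q = 5.33e-06). Without the replicate block these 3 were the genes of the list still called lower.

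Of the 18 genes with a q that IL-1 is known to induce, 5 were higher and 4 lower (50.0%, against 46.6% of all genes), with a median log2 FC of 0.28. ICAM1, an adhesion receptor for leukocytes, rose from 719 ± 101 to 1583 ± 280 normalized counts (log2 FC 1.13 ± 0.09, q = 6.53e-32), and the mitochondrial superoxide dismutase SOD2 rose from 1612 ± 40.2 to 2790 ± 149 (0.79 ± 0.08, q = 5.09e-24). The cytokine LIF fell from 162 ± 45.2 to 62.4 ± 33.4 (38.5% of control, q = 3.31e-08) and the monocyte chemokine CCL2 from 89.6 ± 29.5 to 36.2 ± 14.6 (-1.33 ± 0.31, q = 7.25e-05). The other falls were those of IL6 (-1.85 ± 0.56, q = 0.00320) and NFKBIA (-0.28 ± 0.09, q = 0.00665), and the other rises those of IL11 (0.41 ± 0.12, q = 0.00159), MMP1 (q = 0.00596) and ZC3H12A (0.35 ± 0.15, q = 0.0451), all 5 named after their values were seen. MMP1 reached 4193 normalized counts in OGTi replicate 1 and 536 to 1434 in the other OGTi libraries, against 353 to 763 in control libraries. It was higher in OGTi in 4 of 4 pairs, with overlapping groups. The call of MMP1 was kept without replicate 1 (log2 FC 0.927, q = 9.76e-07). Without replicate 2, ICAM1 and SOD2 were the 2 genes still called higher, with q = 0.0639 for IL11 and 0.0818 for MMP1. ZC3H12A lost its call without any 1 of the 4 replicates (q from 0.0540 to 0.314), IL6 without replicate 3 (q = 0.0621) and NFKBIA without replicate 2 or 4 (q = 0.121 and 0.0772).

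**Figure D5:**
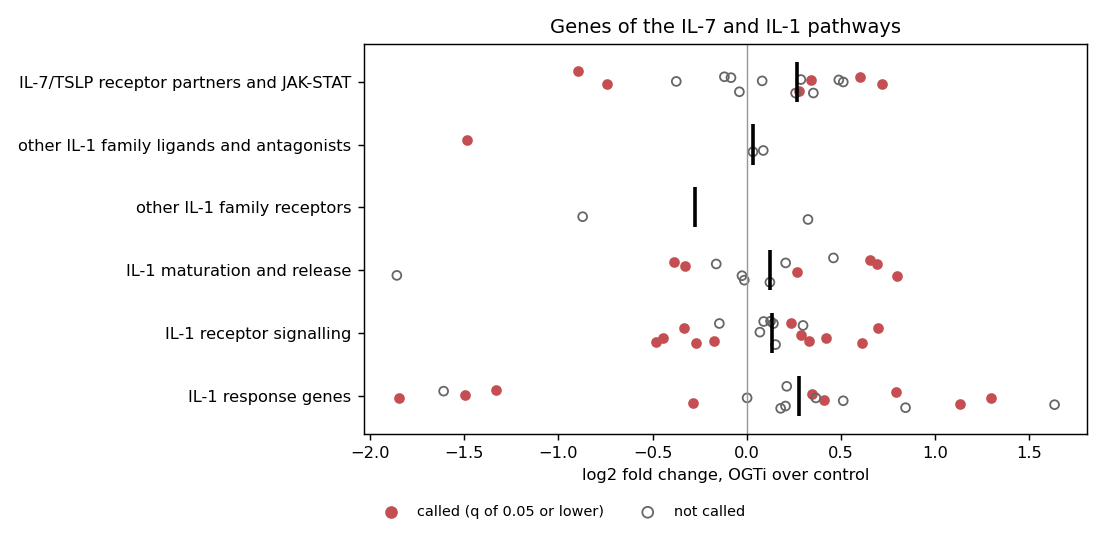
Log2 fold change of OGTi over control for the 70 tested genes of the 6 pathway lists; each circle is a gene, filled red when called and open when not, with small vertical offsets for legibility, and black bars give the median of each list. The medians lie between -0.27 and 0.28, and called genes stand on both sides of 0 in 4 of the 6 lists. The lowest median is that of the other IL-1 family receptors and rests on 2 genes.

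Values of the libraries that bear on these results are given once. The libraries held 24166756 to 28201215 counts, and OGT itself was lower in OGTi cells (log2 FC -0.45 ± 0.09, q = 1.48e-06). Markers of stellate and mesenchymal cells were abundant, with a summed level of 228646 to 267652 normalized counts in control and 163967 to 187378 in OGTi libraries. Of the 10 with a q, 8 were lower and 0 higher, against 24.0% lower and 22.7% higher over all genes with a q. DES, LUM and DCN were near 0 in both groups. IL7R is best known from lymphocytes, and of 14 leukocyte markers 8 had a row. Of these 8, 3 averaged at least 20 normalized counts over the libraries, and 1 of the 6 with a q was called (16.7%, against 46.6% of all genes). Below that level, PTPRC stood at 7.64 ± 4.04 and 2.84 ± 2.28 normalized counts, CD3D at 0 and 0.48 ± 0.96 and CD8A at 2.83 ± 0.64 and 0.25 ± 0.50. The summed leukocyte level, 2669 to 4241 in control and 5781 to 9526 in OGTi libraries, was mostly CD68, a lysosomal protein that rose (log2 FC 1.25 ± 0.08, q = 1.61e-51). Hepatocyte markers summed to 47.1 to 104 and 184 to 297, through CYP2E1, endothelial markers to 49.7 to 91.1 and 17.0 to 33.8, and cholangiocyte and epithelial markers to 682 to 1151 and 955 to 1273. The part of these markers in the results above was not tested.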

How the data were processed

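Polyadenylated RNA of LX-2 cells was sequenced from both ends with strand-specific libraries. The authors aligned the reads to hg38 with Bowtie2 2.3.5.1 and deposited expected counts per gene from RSEM 1.3.1, which are estimated counts in which a read with several alignments is shared between genes. A deposited table of DESeq2 1.36.0 fold changes and p-values, the authors' own comparison, was not used.

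After rounding to whole numbers, genes with fewer than 10 counts over the 8 libraries were dropped, and the other 14895 were fitted in DESeq2 1.42.0 under R 4.3.3 (Wald test, replicate number as a block beside treatment, median-of-ratios size factors, no shrinkage). Genes were called at q of 0.05 or lower. The pairing by replicate is that of the study's methods. Deviations from the group mean of same-numbered libraries correlated at 0.352, 0.273, 0.126 and 0.218 for replicates 1 to 4 (Pearson's r across 12487 genes, which are not independent replicates). Control 3 with OGTi 4 gave 0.246 and control 4 with OGTi 3 gave 0.147, so the pairing of replicates 3 and 4 does not stand out by this measure.

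The members and lists were chosen with earlier results of these data known. For that reason no p-value is given for members or profile neighbours; how many members met the rule for a call is given as a description beside the share of all genes. Named genes were the members, the 4 genes of each pathway list with the largest absolute Wald statistic and a mean of at least 20, the 3 nearest profiles of members with a mean of at least 100, OGT, and marker genes. Positions and lengths came from GENCODE on hg38 (MANE Select transcript) and promoters from RefSeq. A planned comparison of member proteins was not run. Alternatives were no block, edgeR 4.0.16 with and without the block, TMM factors, no minimum or a minimum of 80 counts, each replicate pair left out, and another transcript length. The limit given for a count of 0 covers counting error only.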

Additional observations from a re-analysis of the deposited data

Results flagged for a closer look

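In the 4 OGTi libraries JAK1, the kinase bound by IL7R, had a value apart from the others in replicate 3, at 7075 normalized counts against 7399 to 7440. The gap to the nearest library was 0.887 of the whole range of the group, above the 95% critical value of Dixon's test for 4 samples. This was 1 of 50 groups of 4 libraries examined, where chance alone gives about 2.5. The library still lay above the highest control library, at 6474.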

How the results depend on the processing

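Under every alternative the log2 FC of IL7R stayed between -3.11 and -3.02 and that of IL1RAP between 0.24 and 0.38. That of IL1R1 stayed between -0.42 and -0.28. IL1R1, not called above, was called lower with edgeR and the replicate block and with the stricter minimum. Of the 148 log2 FC values of members and neighbours, 0 moved beyond their error. The 19 other genes named by rule were OGT and the genes of each list with the largest absolute Wald statistic, a choice that favours stable calls. Of these 19, 17 kept their direction and their side of the threshold under every alternative. Genes named after their values were seen are not among the 19. Many of their calls were lost with a pair left out, as given above. IL18BP, not called in any, had a log2 FC of 0.03 that turned negative without replicate 1 and ranged from -0.0157 to 0.0807 with a pair left out. SIGIRR was called with edgeR and the replicate block and with the stricter minimum (q = 0.0244 and 0.0466), which made 1 gene higher among the other receptors in place of 0. Without the replicate block, in DESeq2 and in edgeR alike, 1 JAK-STAT gene in place of 2, 0 other ligands in place of 1 and 3 signalling genes in place of 5 were called lower, and over all genes DESeq2 then called 3100 higher and 3207 lower in place of 3181 and 3360. Dropping the block in DESeq2 changed no other call among the genes named. With a pair left out, lower calls ranged from 1 to 2 for JAK-STAT genes and 0 to 1 for other ligands, and higher calls for IL-1 response genes from 2 to 4. With the length of all annotated exons, control levels per kilobase were 3804 for IL7R, 51.5 for IL1RAP, 44.7 for IL1R1 and 27.9 for IL1B. The cause of these differences was not tested. Fits with a pair left out also had fewer samples. Counts under about 10 per library limit IL7, TSLP, IL1A and IL1RL1.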
